A study of Mus musculus with 2 samples.

Results

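Rathke's pouch, the fold of oral ectoderm that becomes the anterior lobe of the pituitary, is built under the control of a small set of homeodomain transcription factors. The genes described here are 8 of them, Pitx1, Pitx3, Lhx3, Lhx4, Isl1, Hesx1, Otx2 and Pax6. They were taken by name from the 55401 genes of the deposited tables after Ensembl identifiers had been paired with GENCODE symbols, and all 8 had a match. The names were chosen for their known roles in pouch formation and patterning, not for their values, although earlier results of these data were known. Pituitary RNA of mouse embryos was sequenced at E12.5 as stranded, polyA-selected libraries, with 1 library from wild-type embryos (WT) and 1 from Dyrk2-/- embryos (Dyrk2-KO), which lack a protein kinase studied here in relation to primary cilia. The labels state neither how many embryos a library holds nor their sex and strain, nor how the allele was made. The WT and Dyrk2-KO tables correspond to 20045765 and 20115404 counted fragments.

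In textbook accounts the pouch is laid down in steps. The bicoid-related factor Pitx1 marks the oral ectoderm early in the programme. Lhx3 and Lhx4, related LIM homeodomain proteins, then carry the rudimentary pouch into a growing one, while Isl1, also a LIM homeodomain protein, marks early pouch cells and later the ventral side. Otx2, a head-patterning factor of forebrain and hypothalamus, acts upstream of Hesx1, a repressor of the early pouch that works with Groucho (Tle) corepressors and declines as cells mature. Pax6, best known from eye development, sets the dorsal side of the pouch, and Pitx3 is best known from lens and midbrain neurons. LIM homeodomain proteins act in complexes held together by Ldb proteins, and LIM-only (Lmo) proteins compete for them.

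Values are FPKM, fragments scaled by exon length and by the fragments counted in the library, so different genes are compared per annotated length. That length counts all annotated exons of a gene, not the transcripts present, and orders and ratios between genes depend on it. With 1 library per genotype there is no replicate check and no test, and the spread between embryos is unknown. Intervals in parentheses are exact 95% intervals for counting error only, Poisson for a level and Clopper-Pearson for a ratio between libraries, from fragment numbers recovered from the FPKM. In whole tissue, fewer cells of a type and less RNA per cell cannot be told apart. The targeted gene, Dyrk2, measured 11.5 FPKM in the WT library and 1.93 FPKM in the Dyrk2-KO library, 16.8% of the WT level. The hormone genes Pomc, at 8.67 and 8.71 FPKM, and Cga, at 55.4 and 17.0 FPKM, were detected in both, which fits the tissue label, and Pou1f1, a factor of later hormone cells, was at 0 in both. The sexes were mixed in different proportions, with the female transcript Xist at 74.98 and 14.8 FPKM and the Y-linked Ddx3y at 5.83 and 14.95 FPKM, and the part of this difference in the results was not tested.

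The pouch factors covered a wide range of levels, and their order was nearly the same in both libraries. In the WT library it ran Pitx1, Lhx3, Hesx1, Isl1, Lhx4, Otx2, Pax6 and Pitx3, and each of the first 7 was separated from the next by more than counting error. Between Lhx4 and Otx2, the closest neighbours in that order, the ratio was 1.38 (1.24 to 1.53, from the fragment numbers on a log scale). In the Dyrk2-KO library Lhx4, Pax6 and Otx2 came together at 5.52, 5.28 and 5.19 FPKM, with ratios of 1.05 (0.95 to 1.15) for Lhx4 over Pax6 and 1.02 (0.913 to 1.13) for Pax6 over Otx2. Those 3 could not be ordered there. The order holds per annotated exon length: Pax6, with 11694 exon bases, had 973 fragments in the WT library. Otx2, with 4221 exon bases, had 528. Pitx1, Lhx3 and Hesx1 together held 91.2% of the summed FPKM of the 8 genes in the WT library and 92.7% in the Dyrk2-KO library.

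**Figure D1:**
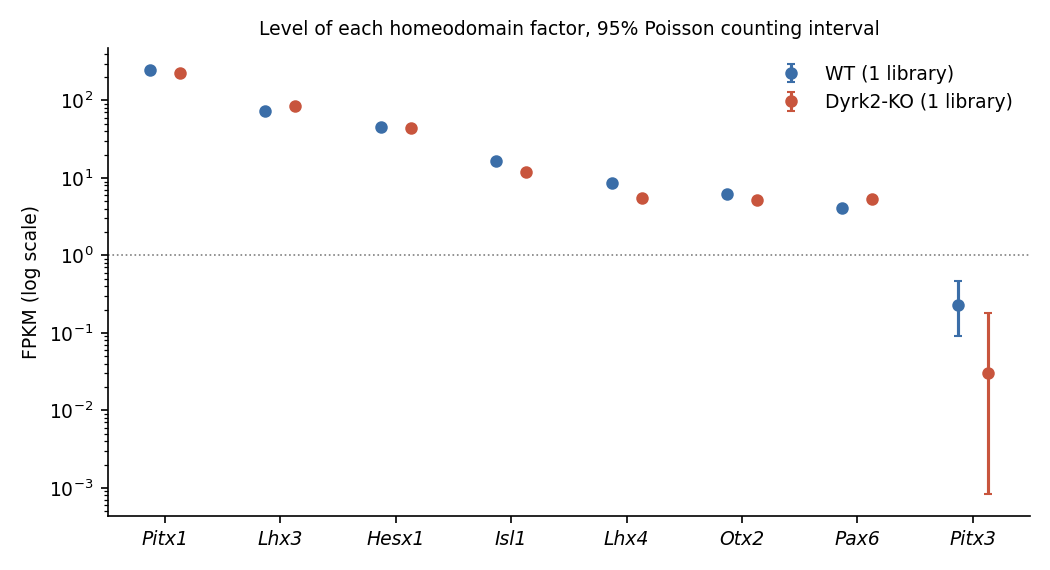
FPKM on a log scale of each of the 8 factors in the WT library (blue) and the Dyrk2-KO library (red), ordered by WT level, with 95% Poisson counting intervals and a dotted line at 1 FPKM. The points of a gene lie close together from Pitx1, at 250.4 and 227 FPKM, down to Pax6, at 4.15 and 5.28 FPKM, and Pitx3 alone lies under the line.

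Of the 8 genes, 7 reached 1 FPKM in at least 1 library, and Pitx3 did not. On the log2 scale after adding 0.5 FPKM to each value, 1 of the 7, Lhx4, was at least 1.5-fold lower in the Dyrk2-KO library and none was that much higher. Among all 14000 genes that reached 1 FPKM, 6.62% lay that far apart, 4.56% on the lower side and 2.06% on the higher side. The median log2 ratio of the 7 was -0.14, with 5 below 0 and 2 above, against -0.02 over all 14000 genes. The counting interval of the plain ratio lay below 1 for 4 of the factors, above 1 for 2 and held 1 for Hesx1 and Pitx3. Over all 14000 genes it excluded 1 for 40%, below for 22.3% and above for 17.7%, so at this depth an interval that excludes 1 is common.

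**Figure D2:**
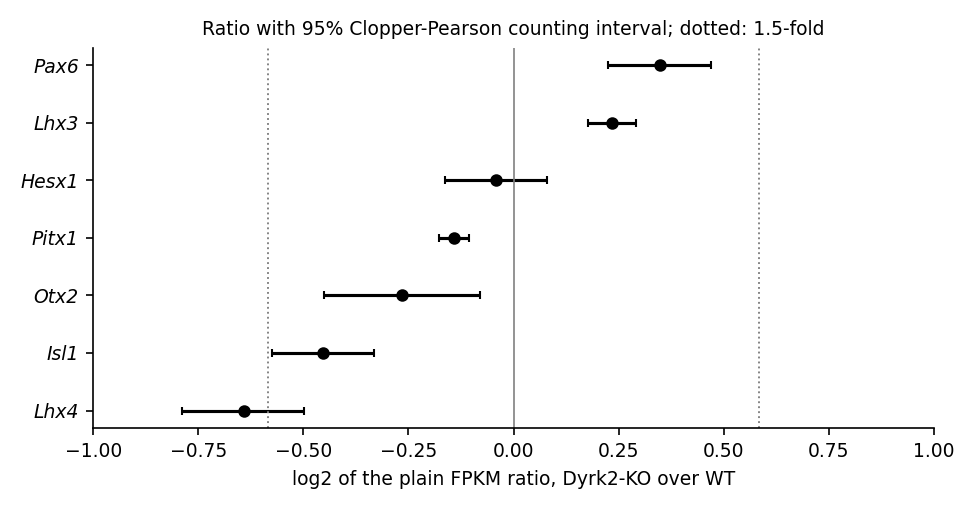
Log2 of the plain FPKM ratio, Dyrk2-KO over WT, for the 7 factors of at least 1 FPKM, with 95% Clopper-Pearson counting intervals, and dotted lines at 1.5-fold. Pax6 and Lhx3 lie to the right of 0, the interval of Hesx1 covers 0, and Lhx4 is the only point beyond a dotted line, although its interval crosses the line.

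Lhx4 (ENSMUSG00000026468, GRCm38 chr1:155698031-155751684, minus strand) stood farthest from equality of the 7. It measured 8.61 FPKM (8.08 to 9.17) in the WT library and 5.52 FPKM (5.10 to 5.96) in the Dyrk2-KO library. That is a 1.56-fold lower level (1.41 to 1.73), and the intervals of the levels do not overlap. Its log2 ratio with 0.5 FPKM added, -0.60, lay just past the 1.5-fold line at -0.58, and 4.41% of all genes compared had a lower one. A small shift in scaling therefore moved it across the line, to -0.57 after scaling by the upper quartile.

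Lhx3 (ENSMUSG00000026934, chr2:26200212-26208289, minus strand), the close relative of Lhx4, was on the other side. It measured 73.0 FPKM (70.9 to 75.2) in the WT library and 85.9 FPKM (83.6 to 88.3) in the Dyrk2-KO library, 1.18-fold higher (1.13 to 1.22). Lhx3 was thus higher in the library in which Lhx4 was lower. Lhx3 ranked 7 among the 210 homeobox genes in the WT library and 3 in the Dyrk2-KO library. Taken as a ratio within a library, Lhx3 exceeded Lhx4 by 8.48-fold (7.92 to 9.09) in WT and by 15.6-fold (14.3 to 16.9) in Dyrk2-KO. That ratio differed between the libraries by 1.83-fold (1.65 to 2.04). Because the genes lay on opposite sides, this is necessarily more than either gene's own level differed. The ratio of Lhx3 to Lhx4, like those of the other pairs below, was chosen after the values were seen.

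Isl1 (ENSMUSG00000042258, chr13:116298281-116309689, minus strand) was lower, as Lhx4 was. It measured 16.4 FPKM (15.6 to 17.3) in the WT library and 12 FPKM (11.3 to 12.8) in the Dyrk2-KO library. This was a 1.37-fold lower level (1.26 to 1.49), within the 1.5-fold line, with 7.31% of all genes at a lower log2 ratio. Its nearest relative Isl2, a factor of neurons, was lower by more, at 4.35 and 2.40 FPKM, or 1.81-fold (1.42 to 2.31). Isl1 is also made by sensory and motor neurons, and 4 of 10 listed neuronal markers stayed under 1 FPKM. Of the other 6 markers, 5 had log2 ratios above 0. The exception, the neurofilament gene Nefl, measured 49.99 and 34 FPKM. The 10 neuronal markers summed to 74.8 FPKM in the WT library and 68.0 FPKM in the Dyrk2-KO library. Nefl held the largest part of that sum in both. The part of neurons in the Isl1 value was not tested.

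The promoters of these LIM homeodomain genes, and one of Otx2, are shown because the members that differ most between the libraries are among them, with the Otx2 window as an example of one that holds a homeodomain core motif. Each line gives the 250 bases before a RefSeq start site (GRCm38.p6), 5′ to 3′ on the strand of the gene. Capitals mark TAATCC, the core bound by bicoid-type proteins such as Pitx1 and Otx2, or TAATTA, a palindromic core of many homeodomain proteins. The windows are chr1:155742028-155742277 for Lhx4, chr2:26206576-26206825 for Lhx3, chr13:116309689-116309938 for Isl1 and chr14:48667645-48667894 for Otx2, all on the minus strand.
Lhx4: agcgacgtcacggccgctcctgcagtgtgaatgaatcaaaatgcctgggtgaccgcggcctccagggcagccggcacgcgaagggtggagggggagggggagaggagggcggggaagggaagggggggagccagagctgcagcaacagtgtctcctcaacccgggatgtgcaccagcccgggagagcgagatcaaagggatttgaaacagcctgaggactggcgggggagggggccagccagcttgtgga
Lhx3: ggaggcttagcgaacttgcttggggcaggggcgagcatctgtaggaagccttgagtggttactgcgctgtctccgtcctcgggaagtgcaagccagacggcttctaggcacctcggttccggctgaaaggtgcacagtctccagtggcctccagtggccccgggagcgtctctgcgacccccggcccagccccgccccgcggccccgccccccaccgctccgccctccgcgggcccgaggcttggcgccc
Isl1: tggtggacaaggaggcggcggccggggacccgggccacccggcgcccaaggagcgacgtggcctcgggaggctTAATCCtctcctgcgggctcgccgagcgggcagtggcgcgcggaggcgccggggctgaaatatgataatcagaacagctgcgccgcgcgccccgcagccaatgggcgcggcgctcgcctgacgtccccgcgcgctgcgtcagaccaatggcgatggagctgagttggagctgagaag
Otx2: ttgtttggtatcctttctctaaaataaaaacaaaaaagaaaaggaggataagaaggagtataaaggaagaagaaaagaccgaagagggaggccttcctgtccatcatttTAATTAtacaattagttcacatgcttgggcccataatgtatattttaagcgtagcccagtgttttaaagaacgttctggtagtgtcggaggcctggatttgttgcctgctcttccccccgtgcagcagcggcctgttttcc
The Lhx4 and Lhx3 windows hold neither core. In the Isl1 window TAATCC lies 177 to 172 bases before the start site, and in the Otx2 window TAATTA lies 141 to 136 bases before it.

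RefSeq start sites were used for 7 of the 8 genes, 12 in all, and the Pitx1 promoter was not analysed here. On either strand, TAATCC was present in 2 of the 12 windows of 250 bases and TAATTA in 2, both of the latter in Otx2. Another of the 4 Otx2 windows, chr14:48665110-48665359, which is not printed, holds 3 TAATTA and 1 TAATCC. Over all 32851 windows of this length the shares were 6.25% and 4.84%. GACCACCCA, the core of the Gli factors of Hedgehog signalling, was in none of the 12 and in 0.225% of all windows. TAATCC and TAATTA share their first 4 letters but did not overlap in these windows. A match describes letters only, and its absence says nothing beyond these windows.

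Pitx1 (ENSMUSG00000021506, chr13:55825051-55836192, minus strand) was the most abundant homeobox gene of all 210 in both libraries. It measured 250.4 FPKM (246 to 255) in the WT library and 227 FPKM (223 to 231) in the Dyrk2-KO library. The level was 1.10-fold lower (1.08 to 1.13), a small difference that counting error does not cover at 13330 and 12134 fragments. Pitx1 held 17.6% of the summed FPKM of all homeobox genes in the WT library and 15.9% in the Dyrk2-KO library. Because Pitx1 was slightly lower and Lhx3 higher, the ratio of Pitx1 to Lhx3 was 3.43 (3.31 to 3.55) in the WT library and 2.64 (2.56 to 2.73) in the Dyrk2-KO library.

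Pitx3 (ENSMUSG00000025229, chr19:46135685-46148326, minus strand) was barely detected. It measured 0.23 FPKM (0.092 to 0.471) in the WT library and 0.03 FPKM (0.000825 to 0.182) in the Dyrk2-KO library. These values are 7 fragments and 1 fragment. The ratio of Dyrk2-KO to WT was 0.130 with an interval from 0.00316 to 1.11, so a difference was not detectable at this depth. Lens and retina markers were low too: 8 of the 10 listed stayed under 1 FPKM in both libraries, and the 10 summed to 5.19 and 5.32 FPKM. Cryaa and Foxe3, which define the lens, were at 0 in both, and the crystallin genes Crybb1 and Cryab measured 2.28 and 3.13 FPKM and 2.29 and 1.41 FPKM. Of 8 listed markers of muscle precursors, another site of Pitx3, 7 stayed under 1 FPKM, with Myf5 and Pax7 at 0 in both, and the sums were 1.32 and 2.51 FPKM.

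Hesx1 (ENSMUSG00000040726, chr14:26994416-27002329, plus strand) was the steadiest of the 7. It measured 45.2 FPKM (42.6 to 47.9) in the WT library and 43.9 FPKM (41.3 to 46.6) in the Dyrk2-KO library. The level was 1.03-fold lower, with an interval from 1.12-fold lower to 1.06-fold higher, and only 19.6% of all genes lay closer to a log2 ratio of 0. Lhx3 exceeded Hesx1 by 1.62-fold (1.51 to 1.72) in the WT library and by 1.96-fold (1.83 to 2.09) in the Dyrk2-KO library.

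Otx2 (ENSMUSG00000021848, chr14:48657677-48673819, minus strand) measured 6.24 FPKM (5.72 to 6.80) in the WT library and 5.19 FPKM (4.72 to 5.70) in the Dyrk2-KO library. It was 1.20-fold lower (1.06 to 1.37), and the intervals of the levels lie close without overlap. Otx2 also serves in the hypothalamus and infundibulum, the neural tissue that adjoins the pouch. Of 12 markers of that tissue 9 reached 1 FPKM, and the list summed to 130 FPKM in the WT library and 124 FPKM in the Dyrk2-KO library. Nkx2-1, which defines the ventral hypothalamus, measured 25.9 and 25.3 FPKM, and Fgf10, an infundibular growth factor gene, 28.5 and 25.5 FPKM. Among those 9 the farthest apart were Fgf8, at 6.54 and 4.57 FPKM, and Vax1, at 0.67 and 1.96 FPKM. Sim1, a hypothalamic factor gene below 1 FPKM, measured 0.52 and 0.03 FPKM, from 90 and 5 fragments. The part of the neural tissue in the Otx2 value was not tested.

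Pax6 (ENSMUSG00000027168, chr2:105668900-105697364, plus strand) had the highest ratio of the 7. It measured 4.15 FPKM (3.89 to 4.42) in the WT library and 5.28 FPKM (4.99 to 5.58) in the Dyrk2-KO library, 1.27-fold higher (1.17 to 1.38). Its log2 ratio with 0.5 FPKM added was 0.31, and 94.4% of all genes compared had a lower one. Because Otx2 was lower and Pax6 higher, the ratio of Otx2 to Pax6 was 1.5 (1.35 to 1.67) in the WT library and 0.983 (0.882 to 1.10) in the Dyrk2-KO library. Pax6 is also made by neural tissue, and the neuronal markers Tubb3, at 15.9 and 23.1 FPKM, and Elavl3, at 2.45 and 3.83 FPKM, were higher as well. Nefl was lower, at 49.99 and 34 FPKM. It held the largest part of the sum of the 10 markers, which was lower too, at 74.8 and 68.0 FPKM. Of the 6 markers that reached 1 FPKM, 5 had log2 ratios above 0. The part of neural tissue in the Pax6 value was not tested.

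**Figure D3:**
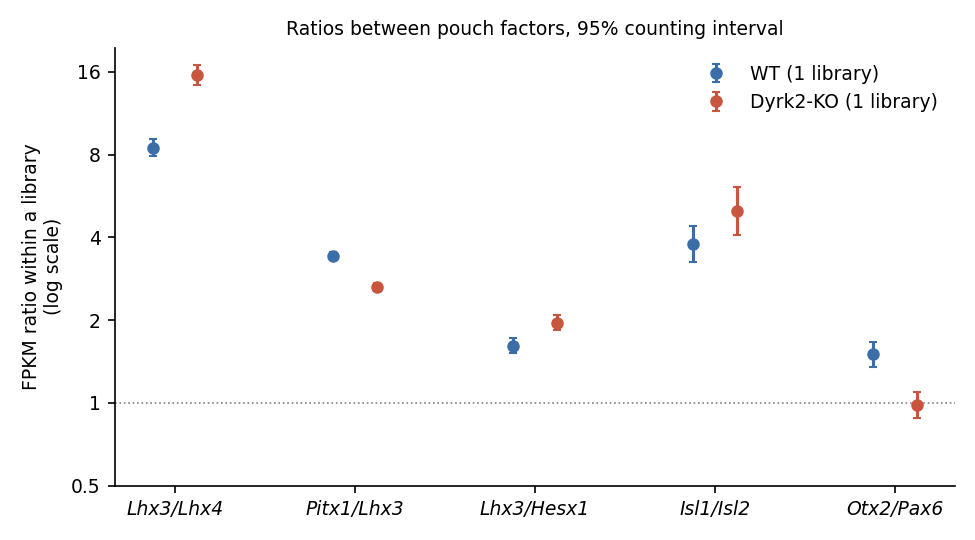
Ratio of FPKM between pouch factors, and of Isl1 to its relative Isl2, within the WT library (blue) and within the Dyrk2-KO library (red), on a log scale, with 95% intervals for counting error. Lhx3 over Lhx4 is 8.48 and 15.6, Otx2 over Pax6 is 1.5 and 0.983, and Pitx1 over Lhx3 is 3.43 and 2.64.

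Genes that overlap the pouch factors or lie within 10 kb of them at either end were examined. Shared bases can blur the assignment of fragments, and the strand setting of the counting is not known. Gm28760, a non-coding RNA inside the span of Pitx1 on the same strand, shares 108 exon bases with it and measured 6.57 and 4.53 FPKM, 1.45-fold lower (1.05 to 2.01). Gm47071, antisense to Pitx1, measured 3.08 and 2.86 FPKM. Gm27196, antisense to Lhx3 over its 5' end, shares 188 exon bases and measured 2.16 and 1.66 FPKM, 1.30-fold lower with an interval from 0.978 to 1.75. Next to the Lhx3, Lhx4, Pitx3 and Pax6 genes, Qsox2, Acbd6, Gbf1 and Elp4 lay within 1.5-fold. Qsox2, 0.348 kb from Lhx3, measured 10.7 and 9.38 FPKM, and Acbd6, 6.70 kb from Lhx4, measured 8.41 and 8.02 FPKM, 1.05-fold lower (0.962 to 1.14). Gbf1 measured 10.4 and 10.9 FPKM and Elp4 9.62 and 9.44 FPKM. Otx2os1, Gm49154, Pax6os1, Elovl3 and Gm13553 were all under 0.4 FPKM in both libraries. No gene of the tables lay within 10 kb of Isl1 or Hesx1.

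The pouch factors were set among 210 homeobox genes, of which 83 reached 1 FPKM. Of those 83, which include the 7, 13 (15.7%) were at least 1.5-fold higher in the Dyrk2-KO library with 0.5 FPKM added. At least 1.5-fold lower were 6 (7.23%). The shares among all 14000 genes compared were 2.06% and 4.56%. The log2 ratios of the 83 ran from -1.24 to 2.82, with a median of 0.03. The 7 pouch factors ranged from -0.60 to 0.31. The ends of the class range were low-level genes, Shox2 at 1.96 and 0.54 FPKM and Alx1 at 0.18 and 4.29 FPKM. Each reached 1 FPKM only in the library where it was high, as did some others of the 13 and 6. Among homeobox genes of at least 5 FPKM in a library, 5 were at least 1.5-fold higher and 1, Lhx4, at least 1.5-fold lower. Lhx4 lay just past that line and fell inside it after scaling by the upper quartile or the trimmed mean of log ratios. The 8 factors made up 28.4% of the summed homeobox FPKM in the WT library and 26.9% in the Dyrk2-KO library, while the sum over the class was 1422 and 1430.2 FPKM. Whether the pouch factors differ from the class in spread was not tested.

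**Figure D4:**
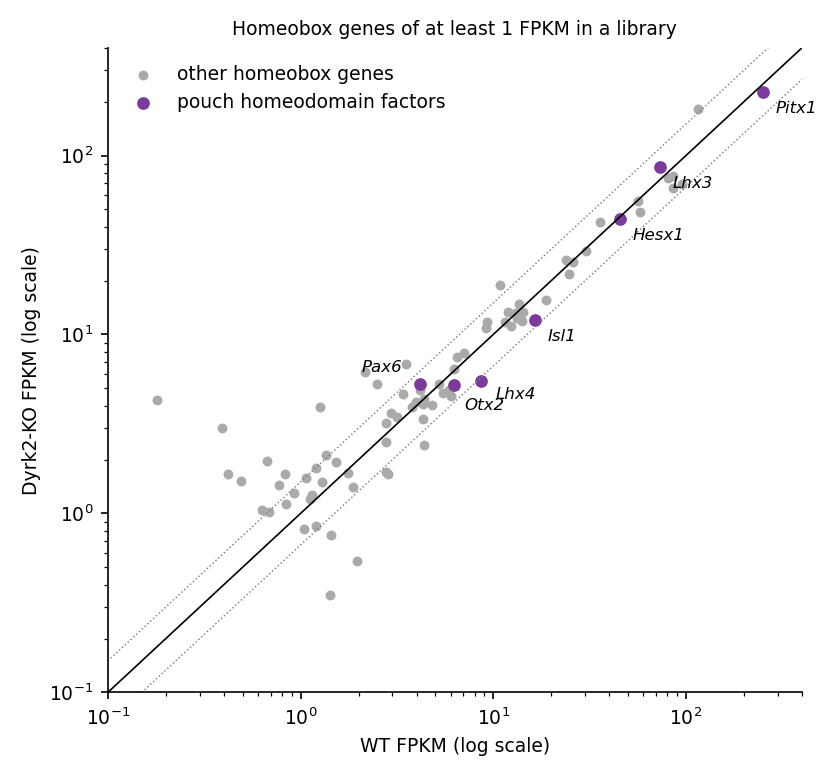
FPKM in the WT library against FPKM in the Dyrk2-KO library, on log scales, for the 83 homeobox genes of at least 1 FPKM in a library, with pouch factors in purple, a line of equality and dotted lines at 1.5-fold. The purple points lie near the line of equality, with Lhx4 just beyond the lower dotted line, and the grey points farthest from it have low FPKM, such as Alx1 at 0.18 and 4.29 FPKM.

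Homeobox genes most like each factor were taken as those at the smallest distance in log2(FPKM + 0.5) over the 2 libraries. For Pax6 the nearest was Homez, at 4.19 and 4.91 FPKM, and for Otx2 it was Zeb1, at 5.86 and 4.91 FPKM. The nearest to Lhx4 was Otx2 itself, the nearest to Isl1 was Meis3, at 14.2 and 11.95 FPKM, and the nearest to Lhx3 was Pbx2, at 80.5 and 75.2 FPKM. Six3, at 35.9 and 42.5 FPKM, was nearest to Hesx1. Pitx1 had no close neighbour: Six2, at 115 and 182 FPKM, was nearest, at a distance of 1.16 on the log2 scale.

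Relatives of the pouch factors in the LIM, Pax and paired classes were mostly at low levels. Of 28 listed genes, 18 stayed under 1 FPKM in both libraries, and Crx, Pax4 and Pax7 were among those at 0 in both. Among the 10 that reached it, 5 were at least 1.5-fold higher with 0.5 FPKM added and 1, Isl2, at least 1.5-fold lower. Of all 14000 genes compared, 2.06% were that much higher and 4.56% that much lower. Of the 5 higher relatives, Alx1, Alx4 and Lhx6 reached 1 FPKM in the Dyrk2-KO library only. They thus entered the count through the library where they are high. The higher ones included genes of frontonasal mesenchyme: Alx1 measured 0.18 and 4.29 FPKM and Alx4 0.49 and 1.51 FPKM. Gsc, a homeobox gene of head mesenchyme, measured 2.16 and 6.16 FPKM. The tissue from which their RNA came was not tested.

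The partners of the pouch factors in the progenitor programme lay mostly within 1.5-fold, as did genes at large, of which 6.62% lay beyond it. Of 21 other pouch transcription factors 18 reached 1 FPKM and 16 of these lay within 1.5-fold with 0.5 FPKM added, with a median log2 ratio of -0.03. The counting interval of the plain ratio lay below 1 for 6 of the 18 and above 1 for 5. It excluded 1 for 40% of all genes compared. Prox1, a homeobox gene within that line, measured 1.36 and 2.11 FPKM, which as a plain ratio is 1.55-fold higher (1.31 to 1.84). Six2, a Six-class homeobox gene, measured 115 and 182 FPKM, 1.58-fold higher (1.53 to 1.64), and Gata2, a zinc finger factor of ventral cells, was 1.59-fold lower (1.5 to 1.69), at 26 and 16.4 FPKM. Six6, a homeobox gene of pouch and retina, measured 95.3 and 69.7 FPKM, 1.37-fold lower (1.32 to 1.42). None of 12 cofactors and competitors of LIM homeodomain proteins was beyond 1.5-fold with 0.5 FPKM added, and their log2 ratios ran from -0.47 to 0.25. Lmo4, a LIM-only competitor, measured 65.0 and 63.9 FPKM, and Mrfap1, the most abundant gene listed but not an established LIM cofactor, 230.2 and 241 FPKM. On the same scale none of 13 corepressors was beyond 1.5-fold. The farthest was Tle2, a Groucho corepressor, at 5.44 and 3.58 FPKM, which as a plain ratio is 1.52-fold lower (1.35 to 1.72). The short Groucho relative Aes measured 117 and 119 FPKM and the histone deacetylase gene Hdac2 67.9 and 70.9 FPKM.

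Of 19 listed genes of the signals that induce and pattern the pouch, 18 reached 1 FPKM, with a median log2 ratio of 0.03. With 0.5 FPKM added, 3 of them (16.7%) were at least 1.5-fold higher and 1 (5.56%) at least 1.5-fold lower. Over all genes compared the shares were 2.06% and 4.56%. Bmp4, the infundibular signal for pouch formation, measured 6.5 and 10.5 FPKM, 1.62-fold higher (1.40 to 1.88). Bmp7, another ligand of that family, measured 3.48 and 5.69 FPKM, 1.64-fold higher (1.41 to 1.91). The Bmp antagonists parted: Nog measured 1 and 2.26 FPKM, and Chrd measured 1.79 and 0.94 FPKM. The receptor gene Bmpr1a was nearly level, at 41.9 and 43.9 FPKM.

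Of 14 genes whose promoters answer to Pitx, Lhx3, Isl1 or Otx2 in pituitary cells, 7 reached 1 FPKM and 6 of those lay within 1.5-fold with 0.5 FPKM added. Cga, the alpha subunit of the glycoprotein hormones, lay beyond it, at 55.4 and 17.0 FPKM, a 3.25-fold lower level (2.87 to 3.69). Lef1, a transcription factor of Wnt signalling, measured 1.11 and 0.72 FPKM, which as a plain ratio is 1.54-fold lower (1.23 to 1.95). Ccnd1, a cyclin gene, measured 116 and 163 FPKM and its relative Ccnd2, which Pitx factors can activate, 57.9 and 73.9 FPKM. Hormone beta subunits under 1 FPKM were lower: Tshb measured 0.20 FPKM and 0, from 18 fragments and 0, and Fshb 0.72 and 0.22 FPKM, from 23 and 7 fragments, 3.27-fold lower (1.37 to 9.10). Lhb, Gh, Prl and Ghrhr were at 0 in both libraries, where 3 fragments on a 1 kb gene equal 0.150 and 0.149 FPKM.

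**Figure D5:**
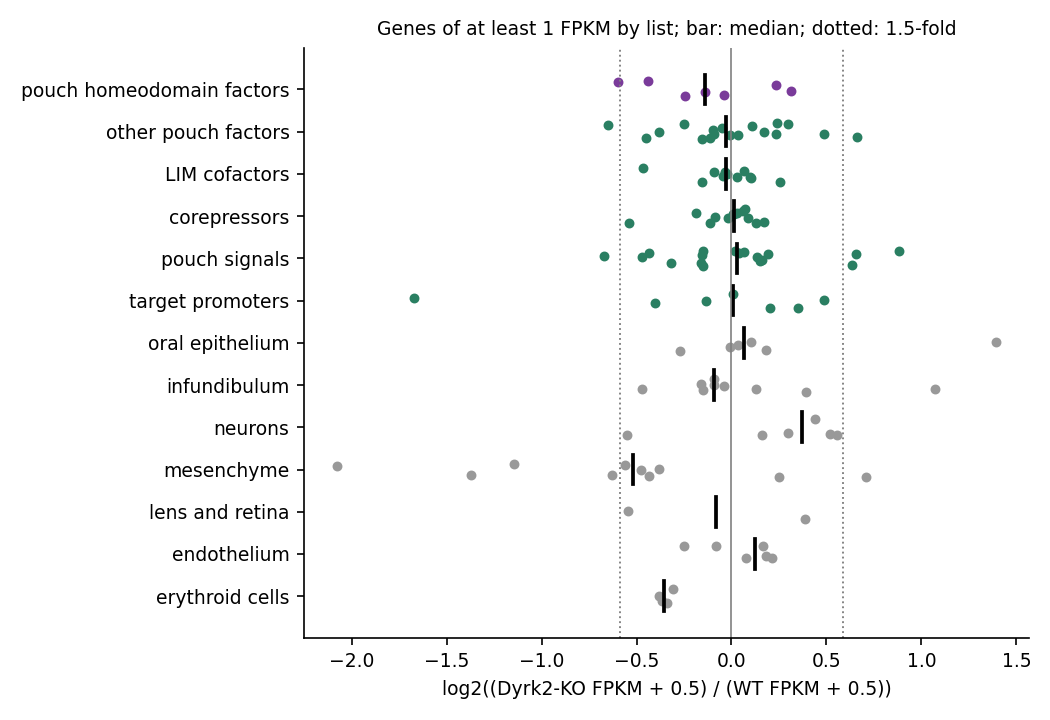
Log2 ratio with 0.5 FPKM added, Dyrk2-KO over WT, of every gene of at least 1 FPKM in each list, with the pouch homeodomain factors in purple, genes of their pathway in green, markers of neighbouring cell types in grey, a black bar at each median and dotted lines at 1.5-fold. The purple points run from -0.60 to 0.31, and among the lists drawn the medians farthest from 0 are those of mesenchyme, at -0.52, neurons, at 0.37, and erythroid cells, at -0.35. With a filter of 5 FPKM the neuronal median is -0.02, the midpoint of the only markers left, Nefl, which is lower, and Tubb3, which is higher.

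Neighbouring tissues in the dissection differed in some markers. The 10 markers of head mesenchyme all reached 1 FPKM in at least 1 library and summed to 230 FPKM in the WT library and 153 FPKM in the Dyrk2-KO library, with Col1a1, a collagen gene, at 42.7 and 16.2 FPKM and Tcf21 at 1.61 FPKM and 0. Of these 10 markers, 8 had log2 ratios below 0 and 2 above. With 0.5 FPKM added, 4 (40%) were at least 1.5-fold lower and 1 (10%), Prrx1, at least 1.5-fold higher. The shares among all genes compared were 4.56% and 2.06%. Prrx1 measured 0.83 and 1.67 FPKM, 2.01-fold higher (1.68 to 2.42). Erythroid markers summed to 2089 and 1608 FPKM, with the globin genes Hbb-y at 1675 and 1285 FPKM and Hba-x at 294 and 228 FPKM. Endothelial markers summed to 75.5 and 79.1 FPKM, with Cdh5 at 24.1 and 28.1 FPKM and Cldn5 at 17.2 and 14.4 FPKM. Oral epithelium, from which the pouch arises, summed to 227 and 228 FPKM, with the adhesion gene Epcam at 195 and 193 FPKM, Cdh1, an epithelial cadherin, at 19.8 and 21.3 FPKM and the keratin gene Krt15 at 0.28 and 1.55 FPKM. The epithelial sum was nearly equal, but Epcam held most of it. Of the 6 epithelial markers that reached 1 FPKM, 4 had log2 ratios above 0 and 2 below. The part of the other tissues in the pouch factor values was not tested.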

How the data were processed

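The members and gene lists were chosen with earlier results of these data known. Each library has 1 table of summed exon length and FPKM to 2 decimals per gene, deposited by the authors, per the file headers. The submitters' processing notes name cutadapt 1.9.1, HISAT2 2.0.1 and GRCm38. The sources used here name no counting tool, strand setting or filter. For all 8 members the deposited exon length equals that of GENCODE M21, which gave symbols and coordinates for 55141 of 55401 identifiers (260 had none). Of 336 listed symbols, 335 matched.

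Fragments counted per library were recovered as the total that makes FPKM times exon length whole: all 1512 (WT) and 1372 (Dyrk2-KO) values checked, of at most 100 fragments, were whole within 0.1 fragment. Ratios of 2 genes within a library have log-scale intervals from their fragment numbers. Log2 ratios add 0.5 FPKM, and genes of at least 1 FPKM in a library were compared. Depth recovery and intervals were tested on simulated data. The text names all members, the genes of each pathway list farthest apart beyond 1.5-fold, the most expressed, the outermost and most expressed markers, neighbours within 10 kb and nearest homeobox genes, apart from some genes that are not reported here. Isl2, Pomc, Pou1f1, Xist and Ddx3y were chosen after their values were seen. Analyses used Python 3.11.15, numpy 2.4.6, pandas 2.3.3 and scipy 1.17.1.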

Additional observations from a re-analysis of the deposited data

How the results depend on the processing

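No paired analysis was possible because each genotype had a single library, and no library could be left out. The log2 ratios of all 8 factors kept their sign under every pseudocount and scaling run, but these settings could hardly have changed it. An equal pseudocount in both libraries cannot change a sign. The scalings multiplied the Dyrk2-KO values by only 1.01 to 1.02. That is too little to move even Hesx1, the factor nearest equality at a ratio of 0.971, across equality. Lhx4 sat at the 1.5-fold line: the count of factors at least 1.5-fold lower, 1, became 0 with a pseudocount of 2 FPKM and after scaling by the upper quartile or the trimmed mean of log ratios. It was 2, with Pitx3, when plain ratios of all 8 were taken, an alternative chosen after seeing the data. The count of higher factors stayed 0. Pitx3 rests on 7 fragments and 1 fragment, and its log2 ratio ran from -2.94 without a pseudocount to -0.14 with one of 2 FPKM. Over all genes, 289 higher and 638 lower became 60 and 178 with a filter of 5 FPKM, 622 and 1192 with no filter, and 132 and 301 with a pseudocount of 2 FPKM. Homeobox genes at least 1.5-fold lower numbered 6, then 1 with the filter of 5 FPKM, 10 with none and 1 with a pseudocount of 2 FPKM, and 5 were higher with the filter of 5 FPKM. Among relatives of the factors, higher genes numbered 2 and lower ones 0 with the filter of 5 FPKM, 3 and 0 with a pseudocount of 2 FPKM, and 3 were lower with no filter. With a pseudocount of 2 FPKM no pouch signal was beyond 1.5-fold in either direction, 0 higher and 0 lower, and with the filter of 5 FPKM 0 were lower. With a pseudocount of 0.1 FPKM 1 corepressor was lower and 2 other pouch factors were higher, and with no filter 2 target genes were lower. The median log2 ratio of the neuronal markers, 0.37, was 0.16 with no filter and -0.02 with the filter of 5 FPKM. That filter left only Nefl, which was lower, and Tubb3, which was higher. The cause of these moves was not tested beyond the genes each setting admits.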
